A study of Homo sapiens with 7 samples.

Results

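The miR-103a and miR-107 family holds 2 mature microRNAs in this study, hsa-miR-103a-3p (called miR-103a-3p here) and miR-107, out of 480 mature names in the deposited table. Its members were chosen by name. miR-103a-3p has 2 hairpin rows, and the higher one stands for it. The study asked which microRNAs are bound to BRAF-X1, an isoform of the mRNA of the BRAF kinase, in A375, an established human melanoma cell line. All 7 libraries came from the same line. Its cells were fixed in 1% formaldehyde (10 min) at 24 h from seeding and went into miRCATCHv2.0, a pulldown of an mRNA with probes followed by small RNA sequencing. There were 3 captures with the ODD probes and 3 with the EVEN probes, both directed at the X1 3′UTR (together called X1 probes here), and 1 capture with scrambled probes. The scrambled group therefore has no replicate. The series' design text calls the captures independent, and nothing says whether they came from separate cultures, so p-values measure only the spread between these libraries.

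MicroRNAs guide Argonaute proteins to target mRNAs mainly through the seed, bases 2 to 8 of the mature strand. The members lie in introns of the pantothenate kinase genes, whose enzymes start the synthesis of coenzyme A. They are known for repressing DICER1, the nuclease that cuts microRNA precursors, and CAV1, the membrane protein caveolin-1, through which they affect insulin sensitivity.

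The mature sequences are shown because the members differ so little that it bears on how their reads can be told apart. They are from RefSeq (GRCh38.p14), written 5′ to 3′ with the seed in capitals. Relatives of the miR-15/16 family are printed beneath them for comparison.
miR-103a-3p: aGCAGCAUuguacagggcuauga
miR-107: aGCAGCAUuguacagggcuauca
miR-16-5p: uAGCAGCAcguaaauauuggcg
miR-15a-5p: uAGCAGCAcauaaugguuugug

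Both members are 23 bases long and 22 of these are identical. The difference is G22C, counted from 1 at the 5′ end of miR-103a-3p. A read that stops before base 22 is the same for both, and no source used here says how such reads were assigned. The seed GCAGCAU belonged to these 2 names alone among the 2370 mature names of the RefSeq table. The letters AGCAGC, searched on the mature strand within bases 1 to 8, occurred in 13 of the 2370 names (0.549%). They start at base 1 in miR-103a-3p and miR-107 and at base 2 in miR-16-5p and miR-15a-5p, so the seeds of the families overlap but are shifted by 1 base.

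The family has 3 hairpins in RefSeq (GRCh38.p14). MIR103A1 lies at chr5:168560896-168560973 on the minus strand, within the bounds of PANK3. MIR103A2 lies at chr20:3917494-3917571 on the plus strand, within PANK2, and MIR107 at chr10:89592747-89592827 on the minus strand, within PANK1. The deposited table names no genome build, and these positions are those of RefSeq only. Because MIR103A1 and MIR103A2 give the same mature miR-103a-3p, a read of that sequence alone cannot be assigned to either locus. Their rows held equal reads in 6 of the 7 libraries and 146 and 147 reads in ODD replicate 2.

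Levels are in RPM, reads per 1e+06 reads over all rows of a library, so they are shares of the summed rows and not amounts. Names with several hairpin rows count more than once in that sum. In such bulk captures fewer cells and less RNA per cell cannot be told apart. Depth ran from 4049 reads in ODD replicate 3 to 35508 in ODD replicate 2, and 1 read was worth 28.2 to 247 RPM. The scrambled library had 4647 reads and the X1-probe libraries 78930 together. These depths count repeated hairpin rows again. With 1 row per name ODD replicate 3 held 3046 reads, ODD replicate 2 held 25679 and the scrambled library 3479. Pigment-cell microRNAs were present, with 4 of 5 listed names in the table and a summed level of 29595 to 40751 RPM in the X1-probe libraries and 37659 RPM in the scrambled one. Most of that sum came from miR-222-3p (17169 RPM with X1 probes) and miR-221-3p (9132 RPM), which many cell types express. miR-204-5p, the more pigment-specific name, was at 2286 RPM with X1 probes (152 reads) and 861 RPM with scrambled probes (4 reads). This difference was not called (adjusted p by limma = 0.310). miR-211-5p was not among the rows. Markers of other cell types were low beside the pigment sum, though not all were below miR-204-5p. Blood microRNAs summed to 0 to 629 RPM with X1 probes and 215 RPM with scrambled probes (4 of 5 listed). Epithelial ones summed to 108 to 494 RPM and 0 RPM (3 of 5 listed). Muscle microRNAs summed to 84.5 to 741 RPM and 646 RPM (2 of 3 listed), and neuronal ones to 185 to 988 RPM and 1291 RPM (3 of 3 listed). In the scrambled library the neuronal sum was thus above the 861 RPM of miR-204-5p. The liver microRNA miR-122-5p was not among the rows. Their part in the results was not tested.

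miR-103a-3p was a moderately abundant captured microRNA, with 290 reads from X1 probes (6 libraries) and 19 from scrambled probes. With ODD probes it had 38, 147 and 17 reads in replicates 1 to 3, which are 3511, 4140 and 4199 RPM. EVEN replicates 1 to 3 held 36, 43 and 9 reads, which are 3874, 2967 and 1888 RPM. The scrambled library's 19 reads are 4089 RPM (exact Clopper-Pearson 95% interval 2463 to 6378 RPM). The lowest value was in EVEN replicate 3, and ODD and EVEN overlapped, since EVEN replicate 1 lay above ODD replicate 1. The scrambled library lay within the range of the X1-probe libraries.

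miR-107 was rarer. It had 5, 39 and 2 reads in ODD replicates 1 to 3, which are 462, 1098 and 494 RPM. EVEN replicates 1 to 3 held 5, 13 and 2 reads, which are 538, 897 and 420 RPM. The scrambled library held 2 reads, 430 RPM (exact 95% interval 52.1 to 1554 RPM). The 2 reads in ODD replicate 3, EVEN replicate 3 and the scrambled library are under the floor of 3 reads used here. Replicate 2 was the highest of both probe sets, and these are also the deepest libraries, at 35508 and 14492 reads. A fit with depth as a term is given beside each comparison of miR-107. The other 5 libraries lay between 420 and 538 RPM, and the scrambled library was again inside the range of the X1-probe libraries.

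**Figure D1:**
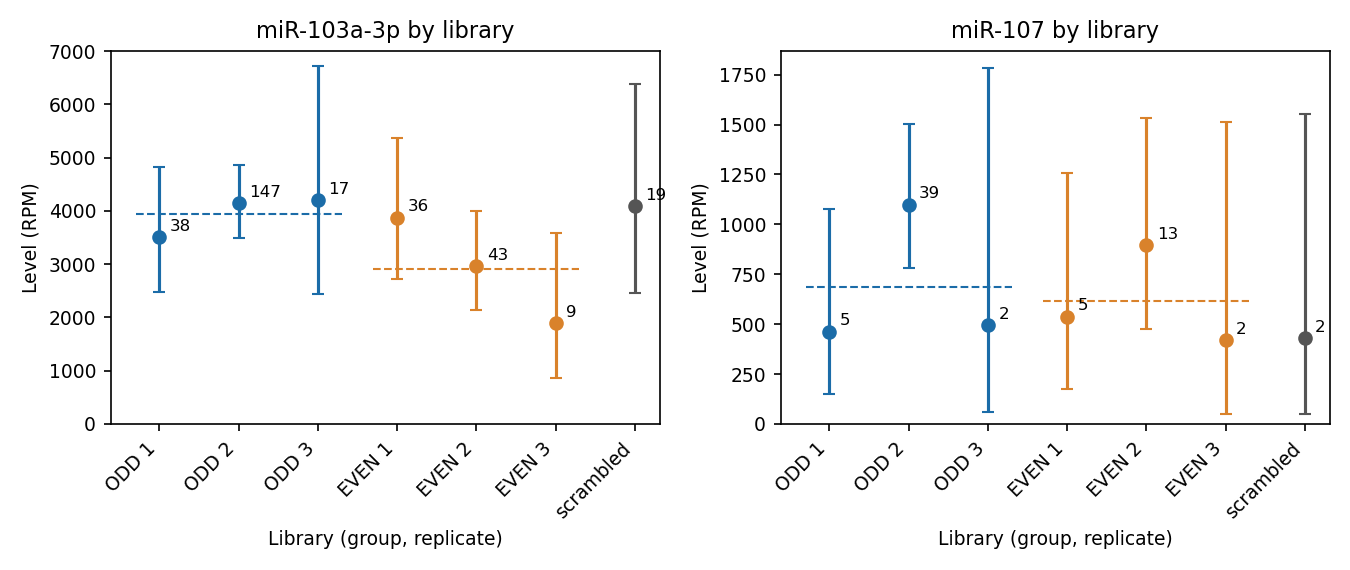
Level of miR-103a-3p (left) and miR-107 (right) in RPM in each of the 7 libraries, by probe set and replicate. Points carry the number of reads, bars are exact 95% intervals that cover counting error only, and dashed lines are the means of the ODD and EVEN libraries; the scrambled points, 19 and 2 reads, lie within the range of the X1-probe points.

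The spread between libraries was set against what counting alone gives at their depths. For both members the exact 95% intervals of all 21 pairs of libraries overlapped. Among the ODD libraries miR-103a-3p had an SD of 381 RPM, against 696 RPM from counting. Among the EVEN libraries the SD was 994 RPM against 612 RPM from counting. For miR-107 the SD was 359 RPM among the ODD and 249 RPM among the EVEN libraries, against 290 and 282 RPM from counting. So the spread was below counting error in some groups and up to 1.62 times as large in others, the highest being that of miR-103a-3p with EVEN probes. Reads carry no molecular identifiers in these values, so the intervals do not cover amplification.

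By its mean over all 7 libraries, miR-103a-3p took place 38 of 480 mature names at 3524 ± 843 RPM (SD, n = 7). Its place within a library ran from 30 in EVEN replicate 1 to 51 in EVEN replicate 3. It accounted for 0.189% to 0.420% of the RPM total. The names next above it were miR-1260b at 3548 ± 564 RPM, miR-7704 at 3579 ± 547 RPM and miR-99b-5p at 3668 ± 1133 RPM (SD, n = 7 each). Next below came miR-21-3p, the passenger strand of the miR-21 hairpin, at 3369 ± 744 RPM, miR-1260a at 3294 ± 708 RPM and let-7b-5p at 3166 ± 704 RPM (SD, n = 7 each). None of these 6 means was farther from that of miR-103a-3p than its own SD, so the order among them is not resolved.

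miR-107 took place 86 at 620 ± 267 RPM (SD, n = 7), between miR-744-5p at 622 ± 547 RPM and miR-425-5p at 605 ± 161 RPM. miR-130b-3p, miR-199b-3p, miR-877-5p and miR-1285-5p followed on either side at 584 to 654 RPM. In ODD replicate 3, where miR-107 had 2 reads, 35 other names had the same value. Places at this level therefore rest on a few reads.

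Together the members had 377 reads, of which miR-103a-3p held 309 and miR-107 held 68, a ratio of 4.54. The sum, the ratio, the shares and their intervals take each read as counted under 1 member only. No source used here states this, and a read that stops before base 22 could be counted under both. Elsewhere in these data miR-199a-3p and miR-199b-3p held equal reads in every library. miR-103a-3p made up 88.4%, 79.0% and 89.5% of the family's reads in ODD replicates 1 to 3. For EVEN replicates 1 to 3 the shares were 87.8%, 76.8% and 81.8%, and scrambled probes gave 90.5% (19 of 21 reads, exact 95% interval 69.6% to 98.8%). In every library miR-103a-3p was the more abundant member. The ODD libraries averaged 85.6% ± 5.74 and the EVEN libraries 82.1% ± 5.52 (SD, n = 3 each), a difference smaller than either SD. With reads pooled the share was 81.5% for both probe sets.

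**Figure D2:**
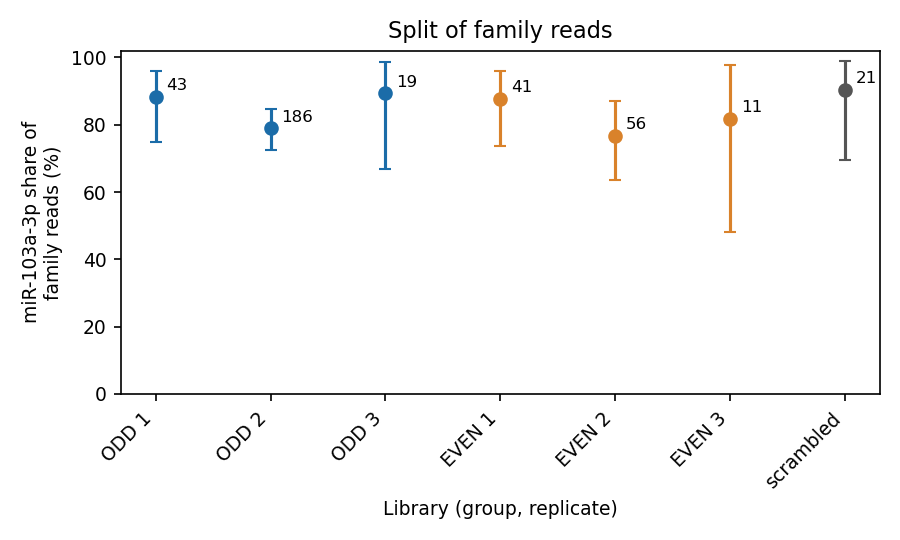
Share of miR-103a-3p in the summed reads of miR-103a-3p and miR-107, in percent, for each of the 7 libraries, with exact 95% intervals from counting and the summed reads beside each point. Shares ran from 76.8% in EVEN replicate 2 to 90.5% in the scrambled library, and the intervals overlap.

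The main comparison set X1 probes against scrambled probes, which asks whether a microRNA is enriched with the BRAF-X1 mRNA. With X1 probes miR-103a-3p averaged 3430 ± 882 RPM (SD, n = 6), and the scrambled library held 4089 RPM, and 4 of the 6 X1-probe libraries lay below the scrambled one. The difference in log2(RPM + 10) was -0.30 with SE 0.42 (95% interval -1.17 to 0.56; adjusted p by limma = 0.692). On a fold scale this interval runs from 0.446 to 1.48, which assumes that the single scrambled library varies as the others do. Without the eBayes trend the log2 interval was wider, -1.75 to 1.14, so no bound on enrichment is drawn from it. The pooled reads gave a ratio to scrambled of 0.899, with an exact counting interval of 0.565 to 1.51.

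miR-107 averaged 652 ± 278 RPM with X1 probes (SD, n = 6) against 430 RPM, and 5 of the 6 libraries lay above the scrambled one. In the scrambled library 1 read was worth 215 RPM, and ODD replicate 3, counted as above it, held 2 reads too. That count of libraries therefore depends on depth. On the log2 scale miR-107 differed by 0.49 with SE 0.88 (95% interval -1.29 to 2.28; adjusted p by limma = 0.746). With depth in the fit the difference was 0.014, without ODD replicate 2 it was 0.29, and without replicate 2 of both probe sets 0.14. The pooled ratio, 66 reads in 78930 against 2 in 4647, was 1.94 with an exact counting interval of 0.517 to 16.4. The 2 scrambled reads, 430 RPM, are under that library's floor of 3 reads, 646 RPM. The upper limits are therefore wide, and no fold is drawn from this ratio. Neither of the 2 members was called, where 2 of all 242 tested names were (0.826%, adjusted p under 0.05). The scrambled value lay outside the X1-probe range for neither member, and for 33.9% of the tested names. The median difference over all tested names was 0.096.

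Each probe set was also compared by itself with the scrambled library, which both comparisons share. With ODD probes miR-103a-3p averaged 3950 ± 381 RPM and miR-107 685 ± 359 RPM (SD, n = 3 each). Their log2 differences from scrambled were -0.054 and 0.54 (limma, 95% intervals -0.98 to 0.87 and -1.37 to 2.45, adjusted p = 0.965 and 0.798). The sign of the miR-103a-3p value turned to 0.082 under quantile scaling and to 0.028 without ODD replicate 1. That of miR-107 turned to -0.028 with library depth in the fit. None of these passed, and 0.826% of all tested names were called.

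With EVEN probes miR-103a-3p averaged 2910 ± 994 RPM (SD, n = 3), and all 3 libraries lay below the scrambled one. Its log2 difference was -0.55 (limma, 95% interval -1.47 to 0.37, adjusted p = 0.667). Without EVEN replicate 3, which had 9 reads, the value was -0.27. miR-107 averaged 618 ± 249 RPM (SD, n = 3), under the scrambled floor of 646 RPM, with a log2 difference of 0.44 (limma, 95% interval -1.47 to 2.35, adjusted p = 0.850). Without EVEN replicate 2 it was 0.14 and with depth in the fit 0.055, and neither member was called, against 0.826% of all tested names.

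Both probe sets were directed at 1 mRNA, and their captures were set against each other. The ODD libraries averaged 3950 ± 381 RPM of miR-103a-3p and the EVEN libraries 2910 ± 994 RPM (SD, n = 3 each). ODD minus EVEN was 0.50 in log2(RPM + 10) with SE 0.32 (95% interval -0.16 to 1.15; adjusted p by limma = 0.967), and an exact two-sided permutation test gave p = 0.2, where 3 against 3 cannot go below 0.1. Its unadjusted p by limma, 0.132, took place 33 among the 242 names. On a fold scale the interval runs from 0.897 to 2.22. Without the eBayes trend the log2 interval was wider, -0.60 to 1.59, so no bound on the difference is drawn from it. The value rested in good part on EVEN replicate 3, without which it was 0.22, and it was 0.73 without EVEN replicate 1.

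The libraries also carry a number in their descriptions, 9, 10 or 12, whose meaning the labels do not give. Within number 9 the ODD minus EVEN difference of miR-103a-3p was -0.14 on the log2 scale, within number 10 it was 0.48 and within number 12 it was 1.15. So the difference did not have the same sign in all 3. Within number 12, which also holds the scrambled library, ODD minus scrambled was 0.038 and EVEN minus scrambled -1.11.

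For miR-107 the ODD and EVEN levels were 685 ± 359 and 618 ± 249 RPM (SD, n = 3 each), closer than either SD. The log2 difference was 0.10 (limma, 95% interval -1.25 to 1.45, adjusted p = 0.982; exact two-sided permutation p = 0.7). Its sign turned without ODD replicate 2 (-0.29), without EVEN replicate 3 (-0.14) and with depth in the fit (-0.083). Within numbers 9, 10 and 12 the differences were -0.22, 0.29 and 0.23. Neither member was called between the probe sets, where 1 of 242 names was (0.413%). The ODD and EVEN libraries of both members overlapped, while 7.02% of the tested names had libraries that did not.

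**Figure D3:**
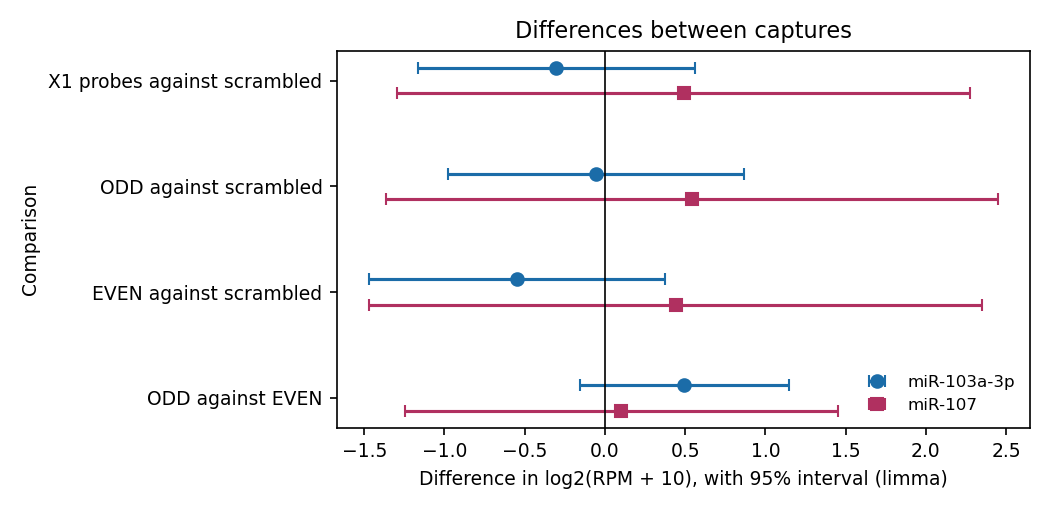
Differences in log2(RPM + 10) of miR-103a-3p (circles) and miR-107 (squares) for the 4 comparisons, with 95% intervals from limma. All 8 intervals include 0, and those of miR-107 are wider.

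**Figure D4:**
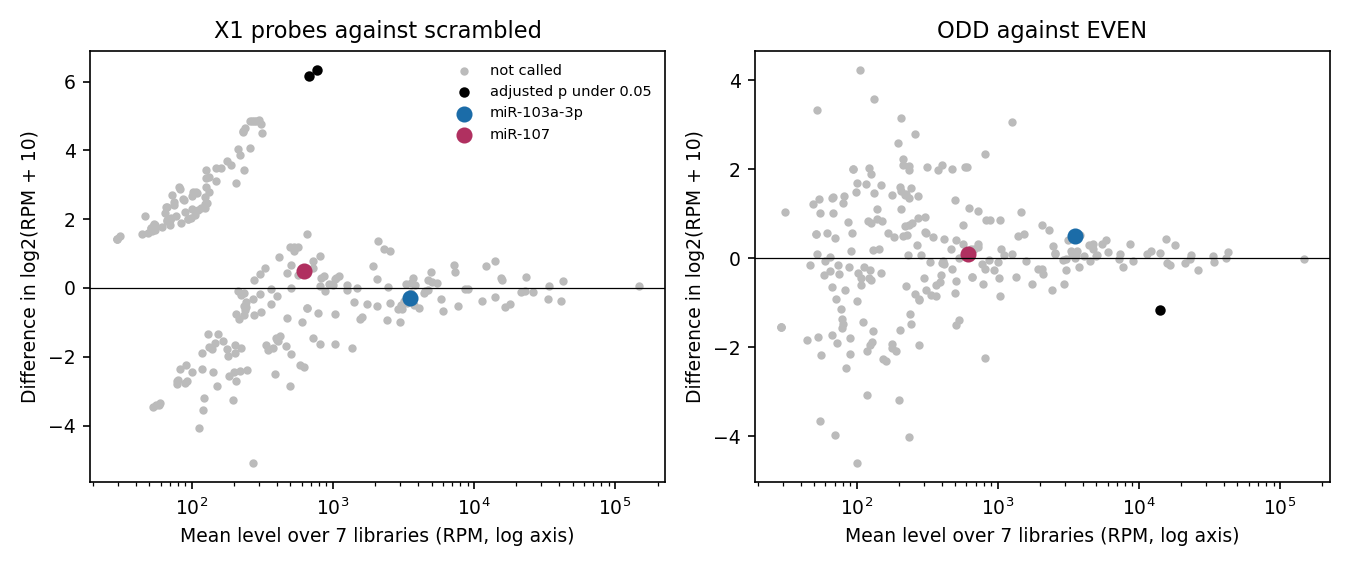
Difference in log2(RPM + 10) against mean level in RPM (log axis) for the 242 tested microRNAs, X1 probes against scrambled (left) and ODD against EVEN (right), with called names in black. miR-103a-3p (-0.30 and 0.50) and miR-107 (0.49 and 0.10) lie among the names that were not called.

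The related AGCAGC names gave a comparison within the wider group. Of 9 listed names 5 were in the table and 3 were tested, and none was called for X1 probes against scrambled or ODD against EVEN, where 0.826% and 0.413% of all tested names were. With so few names such a count says nothing about the group. miR-16-5p, which restrains the cell cycle and BCL2, was the most abundant, with an X1-probe level of 5529 ± 1288 RPM (SD, n = 6), 445 reads, and a scrambled level of 4949 RPM, 23 reads (log2 difference 0.13; adjusted p by limma = 0.841). Like miR-103a-3p it had a higher mean with ODD than with EVEN probes, 6182 ± 1570 against 4876 ± 632 RPM (SD, n = 3 each, limma, adjusted p = 0.979). miR-15a-5p had 14 X1-probe reads and 2 scrambled reads, and miR-15b-5p 10 and 0. miR-497-5p and miR-503-5p had 1 read each, in ODD replicate 1 and in the scrambled library. The median log2 difference from scrambled of the 3 tested names was 0.13, beside 0.096 over all names. That median is the value of miR-16-5p itself. The scrambled reads of miR-15a-5p and miR-15b-5p, 2 and 0, are under the floor of 3 reads, so the median says nothing about the group. Of the family's other listed names, the passenger strands and miR-103b, none was among the rows of the table.

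Of 10 microRNAs listed for their known roles in lipid and glucose metabolism, 6 were in the table and 5 were tested. None was called in either comparison, beside the same 0.826% and 0.413% of all names. The most abundant was miR-378a-3p, encoded within PPARGC1B, a coactivator of mitochondrial genes, with an X1-probe level of 2421 ± 417 RPM (SD, n = 6) and a scrambled level of 3228 RPM (log2 difference -0.43; adjusted p by limma = 0.673). miR-29a-3p, which represses collagen genes, was at 398 ± 157 against 430 RPM, a scrambled value of 2 reads that is under the floor of 3 reads. miR-34a-5p, a target of p53, had 19 X1-probe reads and 0 scrambled reads; its X1-probe mean of 248 RPM is under the scrambled floor of 3 reads, 646 RPM, so no fold is given. The median difference from scrambled of the 5 tested names was -0.23. That median is the value of miR-29a-3p itself. All tested names other than miR-378a-3p had 0 to 2 scrambled reads, under the floor, so the median says nothing about the group.

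Among the 68 names with a mean of at least 1000 RPM, the profile most like that of miR-103a-3p over the 7 libraries was that of let-7b-5p, with Pearson r of 0.941 and Spearman rho of 0.536 on log2(RPM + 10). let-7g-5p (0.839 and 0.643), let-7c-5p (0.833 and 0.357), miR-10b-5p (0.751 and 0.786) and miR-22-3p (0.721 and 0.679) followed. All 5 were lowest in EVEN replicate 3, as miR-103a-3p was. Without that library r fell to 0.604, 0.424, 0.154, 0.492 and 0.065 in the same order, over 6 libraries. These values describe 7 libraries that share their RPM scaling and differ in depth.

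The measured profiles of the members were weakly correlated. Over the X1-probe libraries the SD of miR-107 was 0.973 times that from counting alone. A correlation between such profiles cannot decide whether the members vary together. Over the 7 libraries miR-103a-3p and miR-107 had r of 0.228 and rho of 0.357, and r of 0.345 without the 2 libraries farthest from the median of miR-103a-3p. Without EVEN replicate 3 r was -0.28. The name most like miR-107 was miR-181b-5p, with r of 0.907 and rho of 0.857. Both names were highest in replicate 2 of ODD and of EVEN. Without ODD replicate 2 r was 0.975, and without EVEN replicate 2 it was 0.992. Each of these fits keeps the other replicate 2 library, and r without both was not computed. The search for names like miR-107 was added after miR-107 was found in the table. Counts of 2 to 39 reads leave the profile of miR-107 imprecise.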

How the data were processed

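Small RNA reads were measured in 7 miRCATCHv2.0 captures of A375 cells, grouped by sample title. The authors deposited RPM for 498 hairpin and mature rows, scaled to 1e+06 per column. The tools named in the submitters' processing notes are CASAVA 1.8 and cutadapt 1.2.1. Not given in the sources used here: aligner, rule of counting, annotation, build. Deposited values are whole multiples of 1 read (100% within 1e-06 reads), which gave the reads and depths. The RPM total counts repeated hairpin rows of 17 names again. The highest row stood for each of 480 names.

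The model was fitted on log2(RPM + 10) by limma (version 3.58.1, R 4.3.3), with 1 mean per group, eBayes with a trend (4 residual and 28.6 prior degrees of freedom) and Benjamini-Hochberg adjustment over 242 names with at least 10 RPM in at least 3 of 7 libraries, two-sided, at 0.05. The deposited unit is RPM, and count tests on the recovered reads were not run, although the values are whole multiples of 1 read. Single values carry exact 95% intervals (Clopper-Pearson), and intervals of ratios come from the same interval on the pooled reads; both cover counting error only. The floor is 3 reads.

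The members and lists were chosen with earlier results of these data known. The names printed follow a rule: the family and related lists, the most abundant of each list, the 5 most alike in profile and the 3 neighbours on each side in abundance. Of the 480 names, 406 matched the RefSeq table.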

Additional observations from a re-analysis of the deposited data

How the results depend on the processing

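Each member was refitted under other pseudocounts, filters, hairpin rows and scalings, without the eBayes trend, with a block, with a depth term and without single libraries. Neither member was called in any of these fits. For X1 probes against scrambled the log2 difference of miR-103a-3p ran from -0.54 with the block to -0.10. It ran from -0.79 to -0.27 for EVEN against scrambled and from 0.22 to 0.73 for ODD against EVEN. None of these changed sign. For ODD against scrambled it ran from -0.29 with the block to 0.082 under quantile scaling, was -0.18 with depth in the fit, and lay between -0.10 and 0.028 over the leave-one-out fits. For miR-107 depth in the fit gave -0.028 for ODD against scrambled and -0.083 for ODD against EVEN; over the leave-one-out fits the latter ran from -0.29 to 0.40. The cause was not tested. The filter at a mean of at least 1000 RPM removes miR-107, so that fit gave no value for it.

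Deviations of same-numbered ODD and EVEN libraries correlated at -0.044, 0.072 and 0.019 across names, and those of differently numbered ones at -0.10 to 0.069. Among names of at least 1000 RPM the values were -0.060, -0.040 and -0.38, against -0.38 to 0.37. With 3 libraries per group these values cannot decide whether the description numbers pair the captures. With the number as a replicate block the X1-probe difference was -0.54 for miR-103a-3p and 0.079 for miR-107. The scrambled library is in number 12 alone, so this difference sets it against ODD and EVEN replicate 3 only. There miR-103a-3p had 17, 9 and 19 reads in ODD, EVEN and scrambled, and miR-107 had 2 in each. With the block the calls over all names fell to 0 for X1 probes against scrambled and to 0 for ODD against EVEN.

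Over all names, the 2 calls for X1 probes against scrambled became 12 with no filter and 0 at a mean of at least 1000 RPM, and were 2 to 3 in the leave-one-out fits. The 1 call for ODD against EVEN became 0 under pseudocount 1, no filter, rescaled RPM and quantile scaling, 2 with all hairpin rows, 3 without the trend, and 0 to 3 in the leave-one-out fits. Leaving out replicate 2 of ODD and EVEN together, gave 0. This setting and the other alternatives for miR-107 were added after seeing the data. The planned count tests with edgeR and DESeq2 were not run. Depth limits miR-107, since 3 of its 7 libraries, scrambled included, held 2 reads each, under the floor of 3 reads.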
